A study of Mus musculus with 7 samples.

Results

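Dihydrotestosterone (DHT) is an androgen that binds the androgen receptor and is not converted to estrogen. The arrays compared here are the 6 DHT arrays of a time course in mouse uterus, out of 7 arrays in the series. They were taken by their titles, the late arrays at 12, 18 and 24 h after the injection against the early arrays at 1, 3 and 6 h, 3 arrays on each side. The remaining array, a vehicle control taken 24 h after its injection, did not enter the comparison and is given beside it as background. No measured value entered this rule, but the arrays were chosen with earlier results of these data known.

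All mice were C57BL/6 females aged 10 to 11 weeks whose ovaries had been removed 7 days before death, so both phases and the vehicle lack ovarian estrogen and progesterone. DHT was given once under the skin at 0.1 mg per mouse. Each array read 20 µg of RNA pooled from uteri, and the sources mention 10 mice but not how many made up a pool. The times of the DHT arrays follow the array titles, since the design text of the series names a 0.5 h group in place of 18 h. The title of the vehicle array reads 0 h, but the sources give 24 h from vehicle to death, which is used here. The hour of death is not given. Each array is thus a different time and a different pool, so the 3 arrays of a phase are not replicates of each other, and the spread within a phase holds change over time as well as sampling. The small number of arrays limits how precise any value is.

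The uterus of a mouse without ovaries is a resting organ with a thin luminal epithelium, a stroma and a muscular outer layer, the myometrium. Steroid hormones that reach it act through nuclear receptors in all of these layers. In the response to sex steroids, transcription factors and secreted signals are known to change within the first hours, while DNA synthesis, cell division and growth of the tissue follow later. Late against early arrays therefore ask which genes were higher late and which early after the injection of DHT. The only vehicle array was taken at 24 h. Change with the injection itself or with the hour of day therefore cannot be told apart from change with DHT.

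A gene is called separated when all 3 late arrays lie on one side of all 3 early arrays. The genes of mitosis, the contractile genes of smooth muscle, the fibrillar collagens and the subunits of the mitochondrial respiratory chain were separated upward in larger shares than all genes tested. The genes of MHC class II, of the uterine estrogen response, of Wnt, BMP and hedgehog signalling, the immediate early genes and shared targets of the androgen and glucocorticoid receptors were separated downward in larger shares. The highest difference of any gene was that of skeletal muscle actin, Acta1, at 2.42 ± 0.55 (SE) on the log2 scale, and the lowest was that of the damage-response gene Gadd45g, at -2.18 ± 0.52. Most genes differed little. Across 6326 genes the median log2 difference was -0.00263, and the central 95 percent lay between -0.50 and 0.53.

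No single gene passed the test. In limma, fitted over the 7 arrays with 4 residual degrees of freedom, 0 of 8421 probe sets passed an adjusted p of 0.05 (Benjamini-Hochberg, 0%), and the lowest adjusted p was 0.160. An unadjusted p under 0.05 was reached by 863 probe sets (10.2%), 485 higher and 378 lower on the late arrays. Single genes are therefore described below by their signal on every array and by whether the phases overlap. For a single gene an exact permutation test of 3 arrays against 3 cannot go below a two-sided p of 0.1.

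Among the probe sets, 689 (8.18%) were separated upward and 557 (6.61%) downward. Among the genes, each read by its brightest probe set, 537 (8.49%) lay above the early arrays on every late array and 460 (7.27%) below. Gene lists are read against these last shares. Their median differences were small, 0.36 for the genes separated upward and -0.33 for those separated downward. Only 19 probe sets (0.226%) were both separated upward and at least 2-fold higher, and 14 (0.166%) were separated downward and at least 2-fold lower. Leaving out single arrays gave 915 to 1348 probe sets separated upward and 862 to 1204 downward, since fewer arrays need to lie apart. The 2-fold counts were 36, 34 and 32 upward without the 6 h, 12 h and 24 h arrays, and 9 and 27 downward without the 3 h and 6 h arrays. Where a separated gene had a second probe set above the filter, the second had the same sign for 61 of 92 genes upward and 67 of 92 downward, and was itself separated the same way for 16 and 10 of them.

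**Figure D1:**
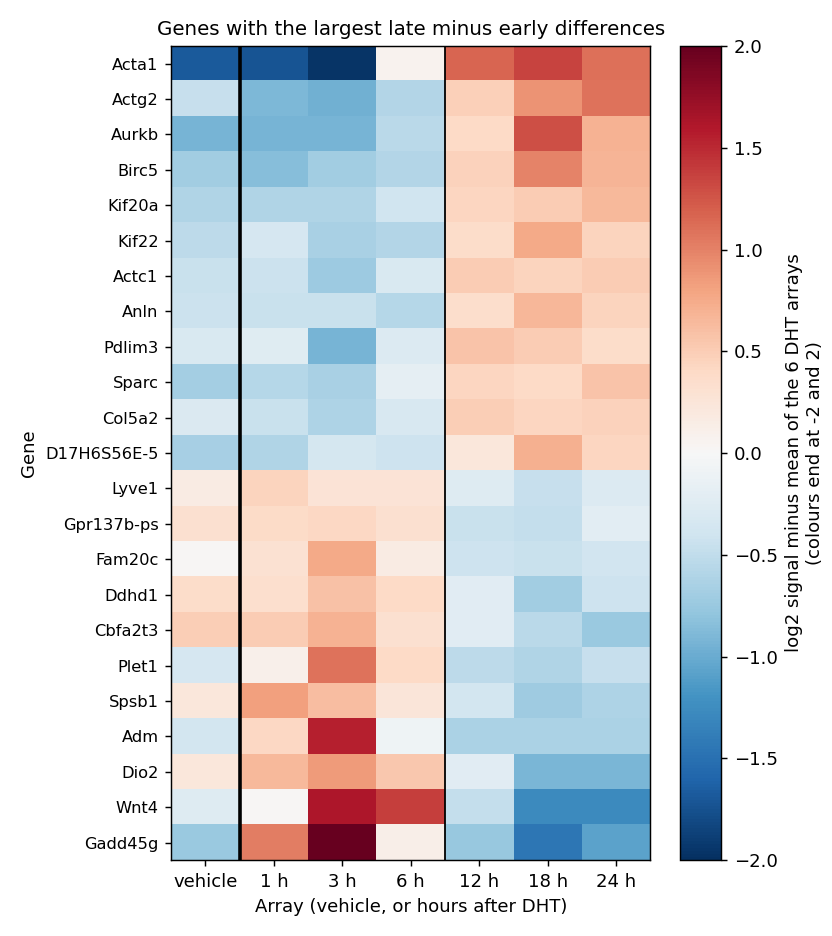
Heat map of the 12 genes with the highest and the 11 genes with the lowest late minus early difference among separated genes with a gap of at least 0.5 log2 between the phases. Rows are genes, columns are the 7 arrays, and colour is the log2 signal minus the mean of the 6 DHT arrays. The upper genes are red and the lower genes blue on all 3 late arrays. For the upper genes the vehicle column mostly resembles the early columns, while for most lower genes vehicle lies between the phases.

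The technical measures did not follow the phases. Ratios of 3 prime to 5 prime control signals, spike-in controls, opposite-strand controls, the share of values under the floor (39.4 to 40.7 percent of an array) and the median signal (228 to 238) all overlapped between early and late arrays, with exact two-sided permutation p between 0.7 and 1. The tissue label was checked against marker genes. Of 22 epithelial markers 20 were above the filter, all 9 myometrial markers were, and 13 of 15 stromal markers were, with 2 stromal markers, Vim and Ecm1, under the floor on every array. Of 15 ovary and oviduct markers 7 were under the floor on all arrays, and of 15 T and NK cell markers 11 were. The other 8 ovary and oviduct markers and 4 T and NK cell markers were above the filter. Among the former, Foxj1, Gdf9, Fshr, Ovgp1 and Zp2 were above the floor on every array.

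**Figure D2:**
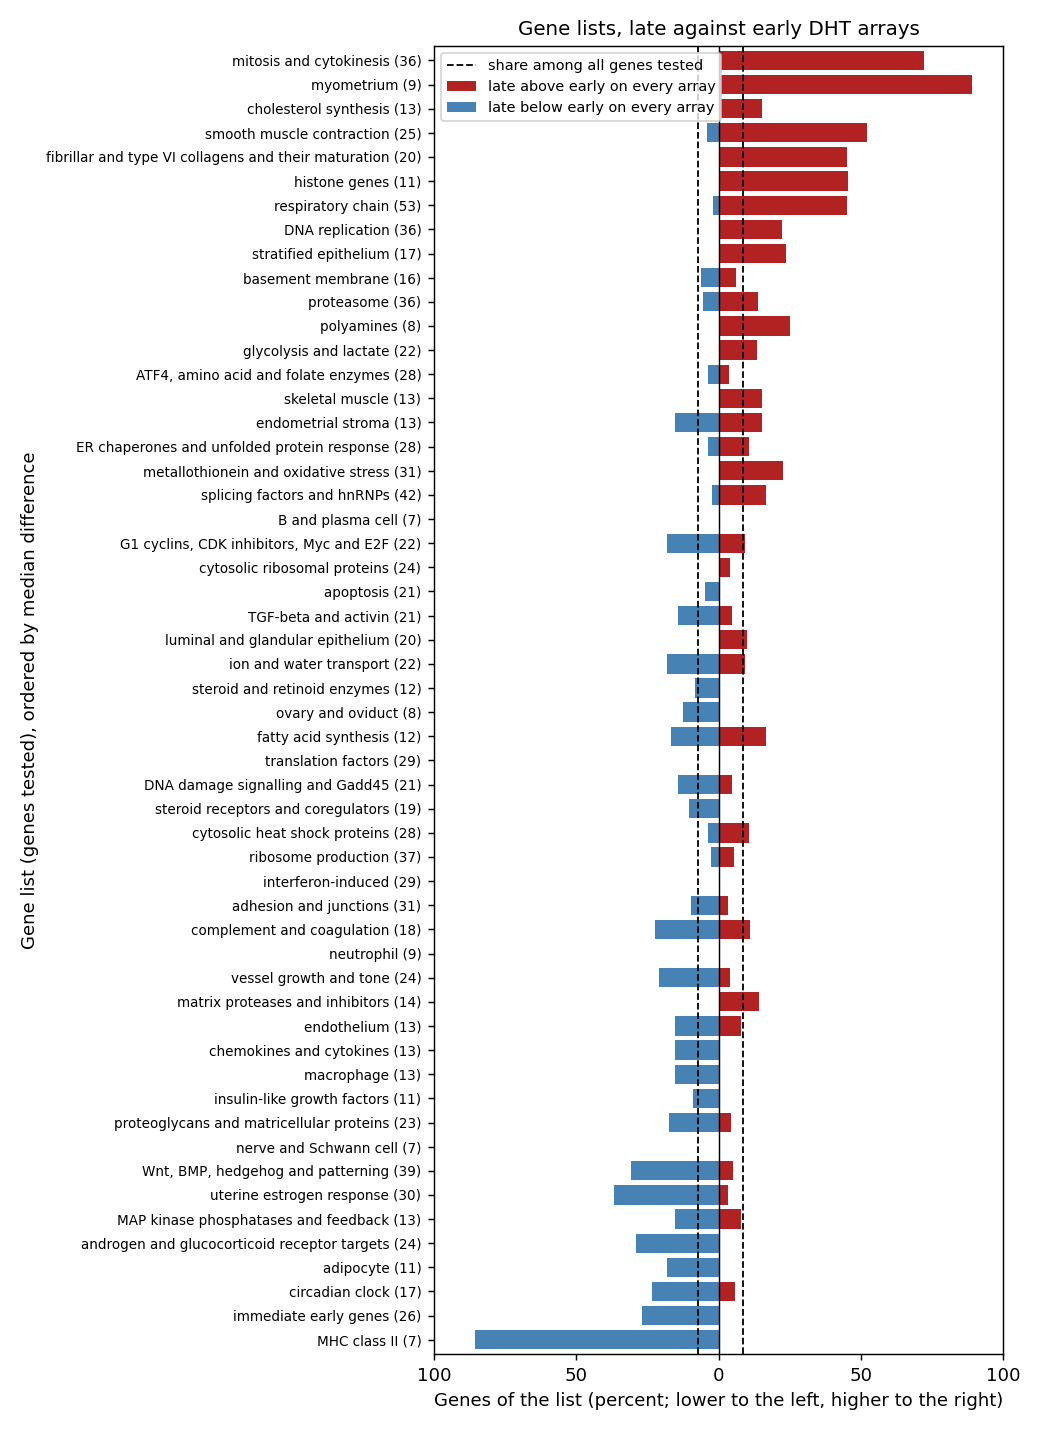
Bars give, for each gene list with at least 7 genes tested, the percent of its genes separated upward (right) and downward (left), in the order of the list's median late minus early difference. Dashed lines mark the shares among all genes tested, 8.49% and 7.27%. Mitosis, myometrium, smooth muscle, collagens, histone genes and the respiratory chain reach far past the right line, and MHC class II reaches farthest past the left line.

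Mitosis gave the largest group on the higher side. Of 36 genes of mitosis and cytokinesis tested, 26 were separated upward and 0 downward, and 35 had a difference above 0. The list median was 0.67 on the log2 scale, against -0.00263 over all genes. Against vehicle, the list median lay between 0.00 and 0.10 on the early arrays, and it was 0.65, 0.94 and 0.72 on the late arrays in time order. Of the 26 separated genes 23 were highest at 18 h. In bulk tissue, more cells in division and more of their RNA per cell cannot be told apart.

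Aurkb, the kinase of the chromosomal passenger complex that checks the attachment of chromosomes to the spindle, had signals, in time order, of 144, 77 and 192 on the early arrays and of 365, 681 and 452 on the late arrays, against 93 on vehicle. All signals below are in time order. Signals under the floor of 145.9 were raised to it before any difference was taken, so this difference of 1.59 ± 0.26, and any other with a signal under the floor in one phase, is a lower bound on its size. The late arrays were all far above the early ones. Birc5 (survivin), which belongs to the same complex, had signals of 172, 192 and 208 on the early arrays and of 426, 619 and 495 on the late arrays, with 192 on vehicle. Its difference was 1.42 ± 0.17 (limma adjusted p = 0.174). Incenp, the scaffold of that complex, was separated upward as well, at 0.46.

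The motor proteins of the spindle were on the same side. Kif20a, a kinesin of the late spindle, had signals of 80, 95 and 167 on the early arrays and of 298, 314 and 347 on the late arrays. It had the lowest p of all genes higher late (1.06 ± 0.09, limma adjusted p = 0.174), although its second probe set overlapped between the phases with signals near the floor. Kif22, a kinesin that moves chromosomes, had 783, 632 and 662 early and 1279, 1669 and 1344 late (1.04 ± 0.14). The early array at 1 h was nearest to the late ones, and the phases did not overlap. In all, 4 of 6 kinesins, 5 of 6 mitotic kinases and all 4 genes of chromosome condensation were separated upward, and 4 of 5 genes of the cleavage furrow. These subgroups were formed after the values were seen.

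Other members named by the rule were Nusap1, a spindle microtubule protein, with 282, 133 and 190 early and 423, 480 and 391 late (1.11 ± 0.26), Anln (anillin), a scaffold of the furrow, with 236, 238 and 218 early and 412, 510 and 440 late (0.97 ± 0.12), and Ttk, the spindle checkpoint kinase. Ttk was at the floor on all early arrays and on vehicle and on no late array, where its signals were 168, 272 and 196. That makes its 0.51 a lower bound on the log2 difference. Ttk thus passed the filter only through its late arrays, so the filter set its direction, and its count among the genes higher late adds no support. Of 6 members of the anaphase promoting complex and the checkpoint 2 were separated. Pttg1 (securin), which restrains the separation of sister chromatids until anaphase, was the only member of the list below 0, at -0.26 with overlapping phases. Of the 6 other probe sets of list members above the filter, 5 had the sign of the brighter probe set. Only 2 of the 6 were separated upward, and their median was 0.19, below that of the list.

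The promoters of mitotic genes are known for pairs of short sequence elements. The cell cycle homology region, CHR, is bound by the DREAM complex and by MuvB with B-Myb and FoxM1, and the CCAAT box is bound by NF-Y. Windows of 250 bases before to 50 after each start came from RefSeq (assembly GRCm38.p6), and 5063 of the 6326 genes tested had an entry. The letters TTTGAA on either strand were in 25 of 32 mitosis promoters (78.1%), against 12.3% of the 6543 promoters of all genes tested and 17.9% of all 32851 promoters of the table. The letters CCAAT on either strand were in 26 of 32 (81.2%), against 36.8% and 37.4%. Among the promoters of all genes separated upward the shares were 19% and 43.9%, and among those separated downward 9.98% and 30.9%. A match of letters is a description and no proof of a site, and the list was chosen with earlier results known.

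The promoters of Kif22, Cdk1, Ccnb2 and Cdc20 are shown because each holds both elements close to the start. All 4 genes were separated upward (1.04, 0.80, 0.86 and 0.68), and apart from Kif22 they were picked after their values were seen. Each window runs from 150 bases before to 20 bases from the start on, read in the direction of the gene, with TTTGAA and CCAAT, or their complements TTCAAA and ATTGG, in capitals.
Kif22 promoter, chr7:127042401-127042570, minus strand: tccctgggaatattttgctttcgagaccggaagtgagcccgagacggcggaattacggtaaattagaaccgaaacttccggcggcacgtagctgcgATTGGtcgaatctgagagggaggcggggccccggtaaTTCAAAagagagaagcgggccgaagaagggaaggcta
Cdk1 promoter, chr10:69352893-69353062, minus strand: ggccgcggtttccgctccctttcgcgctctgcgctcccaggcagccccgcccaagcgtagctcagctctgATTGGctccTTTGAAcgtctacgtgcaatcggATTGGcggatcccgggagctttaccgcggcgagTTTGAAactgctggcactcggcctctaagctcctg
Ccnb2 promoter, chr9:70421535-70421704, minus strand: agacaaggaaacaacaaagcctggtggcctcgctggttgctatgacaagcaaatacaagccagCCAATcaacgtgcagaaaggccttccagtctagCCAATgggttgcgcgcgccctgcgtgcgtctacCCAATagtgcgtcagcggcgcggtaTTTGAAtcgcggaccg
Cdc20 promoter, chr4:118437324-118437493, minus strand: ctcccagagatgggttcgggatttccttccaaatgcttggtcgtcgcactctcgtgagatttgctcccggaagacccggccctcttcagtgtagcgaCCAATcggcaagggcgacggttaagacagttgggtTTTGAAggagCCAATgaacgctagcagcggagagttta
Counted from the start, the TTTGAA element nearest to it begins at -17 in Kif22, at -15 in Cdk1, at 5 in Ccnb2 and at -18 in Cdc20. A CCAAT element begins upstream of it at -54, -48, -21 and -53.

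Genes that copy DNA followed with smaller differences. Of 36 DNA replication genes 8 were separated upward and 0 downward, with a median difference of 0.20, and 31 were above 0. The median was 0.079 without the 12 h array and 0.31 without the 24 h array. Of 4 members for nucleotide supply 3 were separated, and of 5 subunits of the clamp loader Rfc 2 were. Rrm2, a subunit of ribonucleotide reductase, had signals of 145, 152 and 136 early and of 444, 253 and 199 late (0.93 ± 0.29, a lower bound, as 2 early arrays were at the floor). Tk1 (thymidine kinase) had 828, 628 and 609 early and 1321, 1230 and 1106 late (0.83 ± 0.15), and Rrm1, the other reductase subunit, had 552, 528 and 586 early and 897, 970 and 660 late (0.58 ± 0.17). Of 5 tested subunits of the MCM helicase none was separated in either direction. The highest late array was 12 h for 6 of the 8 separated genes, while it was 18 h for 23 of the 26 separated genes of mitosis. This difference in timing was not tested.

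Histone and chromatin genes went along. Of 11 tested 5 were separated upward and 0 downward (median 0.24), and all 5 were highest at 18 h. Hmgb2, a chromatin protein of dividing cells, had signals of 297, 236 and 200 early and of 352, 439 and 333 late (0.63 ± 0.19). H2ax, the histone variant marked at DNA breaks, had 1041, 1308 and 1426 early and 1574, 1901 and 1586 late (0.43 ± 0.15). Of the G1 cyclins, inhibitors, Myc and E2F genes, 2 of 22 were separated upward and 4 downward, with a median near 0 (0.01). Among those below, Cdkn1c, the inhibitor p57, had 1328, 1245 and 1416 early and 856, 775 and 981 late, against 1559 on vehicle (-0.62 ± 0.11). Cdkn1a, the inhibitor p21, had 388, 428 and 407 early and 375, 301 and 168 late (-0.61 ± 0.31), and its second probe set overlapped with the opposite sign (0.29).

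The contractile genes of smooth muscle formed the next group. Of 25 tested 13 were separated upward and 1 downward, with a median of 0.35. Of 9 myometrial markers, all of them members of that list too, 8 were separated upward (median 0.56). The actins lay at the top. Acta1 had signals of 359, 306 and 1257 early and of 2682, 3060 and 2560 late, against 371 on vehicle (limma adjusted p = 0.289). The 6 h array lay between the other early arrays and the late ones, and without it Acta1 was the single probe set to pass the adjusted threshold (difference 3.06, limma adjusted p = 0.0478).

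Actg2, the actin of visceral smooth muscle, had 1745, 1669 and 2182 early, 4533, 6075 and 6895 late and 2371 on vehicle, a difference of 1.63 ± 0.19 (limma adjusted p = 0.174). Actc1, cardiac actin, had 1348, 1093 and 1469 early and 2587, 2466 and 2595 late (0.98 ± 0.12). Acta2, vascular smooth muscle actin, had 7184, 7114 and 7369 early and 8755, 12037 and 13372 late (0.63 ± 0.17). The late arrays of all 4 actins lay above all early ones. Actin messages are near copies of each other, so a probe set may pick up more than a single actin.

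Of the other contractile genes, Cnn1 (calponin), which holds actin filaments, had 2056, 1765 and 2278 early and 3134, 3746 and 3391 late (0.76 ± 0.12), and Des (desmin), the muscle intermediate filament, had 390, 418 and 612 early and 717, 639 and 787 late (0.62 ± 0.20), with vehicle at 716 among the late values. Pdlim3, a protein of the actin anchor that is not on this list, had 672, 416 and 651 early and 1180, 1120 and 1022 late (0.96 ± 0.21). Of 7 actin-binding contractile genes 5 were separated, of 4 genes for myosin, its light chains and its kinase 3 were, and of 4 genes for adhesion plaques and junctions none was. Cryab, a small heat shock protein of muscle, was the member separated downward, with 266, 228 and 255 early and 188, 182 and 183 late (-0.44 ± 0.08) and vehicle at 175.

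The order of arrays differed from that of mitosis. Of the 13 contractile genes separated upward, 9 were highest at 24 h and none at 12 h, and the list median against vehicle was 0.22, 0.28 and 0.38 at 12, 18 and 24 h. The summed signal of the 9 myometrial markers lay between 28517 and 29326 on the early arrays and between 37874 and 51644 on the late arrays, against 31198 on vehicle, so the list as a whole moved with the phase. The part of tissue makeup in this was not tested. Skeletal muscle markers were also checked because Acta1 is among them. Of 20, 7 were under the floor on all arrays, among them Mb, Myh1, Myh2 and Tnnt3, and of the 13 tested only Acta1 and Pvalb were separated upward. Pvalb, a calcium buffer, had 1930, 2144 and 1840 early and 2212, 2750 and 2774 late (0.38 ± 0.12), with vehicle at 2673.

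The CArG box is bound by serum response factor and is known from actin and other muscle promoters. Its core was in 6 of 23 promoters of the smooth muscle list (26.1%), against 1.53% of the promoters of all genes tested and 1.63% of all promoters, and in 2.82% of the promoters of genes separated upward. The Acta1 and Actc1 windows are shown because they hold the core in promoters of actins at the top of the comparison. Capitals mark the core, which begins at -73 in Acta1 and at -47 in Actc1.
Acta1 promoter, chr8:123894756-123894925, minus strand: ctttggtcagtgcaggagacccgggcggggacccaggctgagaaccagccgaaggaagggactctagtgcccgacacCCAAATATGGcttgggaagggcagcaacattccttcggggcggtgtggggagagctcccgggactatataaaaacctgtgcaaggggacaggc
Actc1 promoter, chr2:114052856-114053025, minus strand: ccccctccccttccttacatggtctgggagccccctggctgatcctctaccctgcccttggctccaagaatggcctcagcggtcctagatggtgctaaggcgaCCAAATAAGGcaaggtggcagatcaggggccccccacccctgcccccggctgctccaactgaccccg

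**Figure D3:**
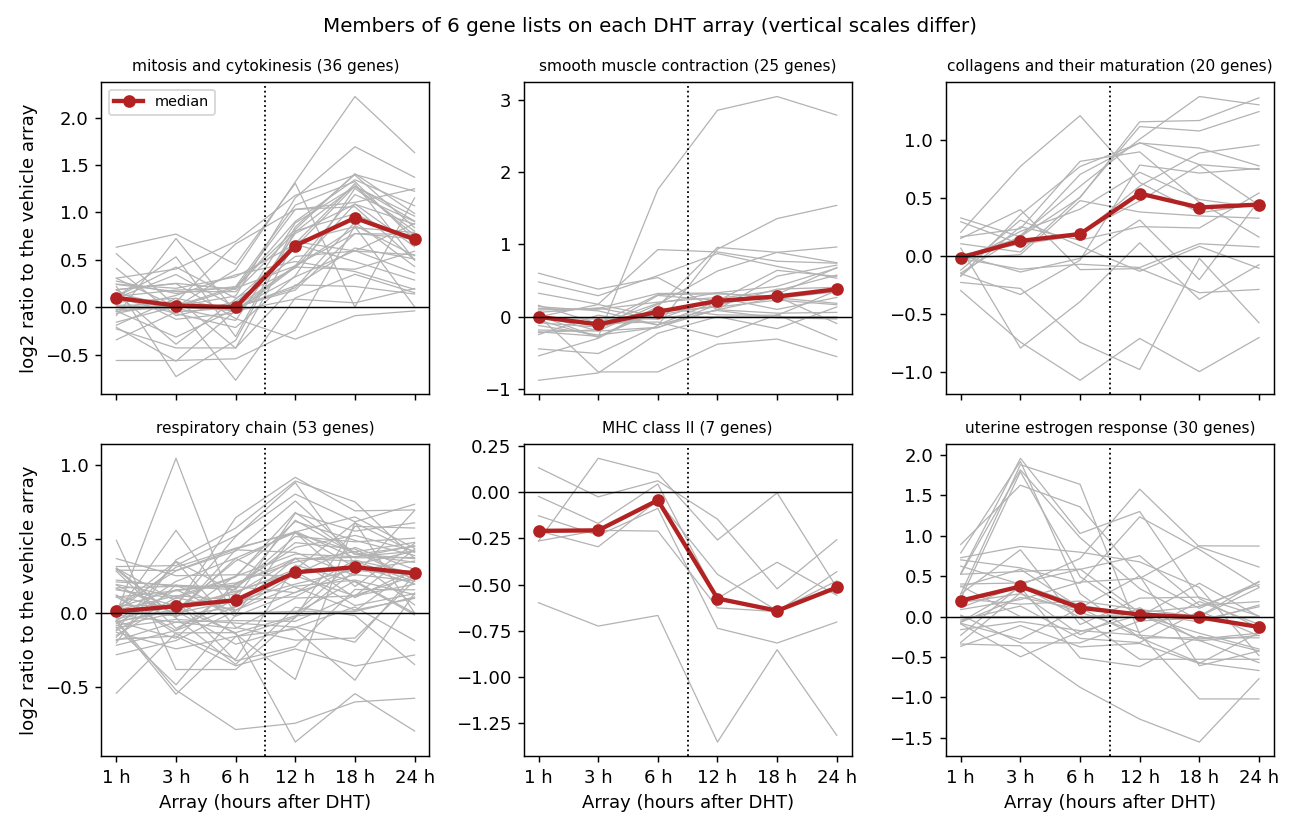
Each panel shows the members of a gene list as grey lines and their median as a red line, as log2 ratio to the vehicle array on the 6 DHT arrays, with a dotted line between the early and the late arrays. The mitosis median is 0.00 at 6 h and 0.94 at 18 h, the smooth muscle median is highest at 24 h (0.38), and the MHC class II median drops from -0.04 at 6 h to -0.58 at 12 h.

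Fibrillar collagens, the ropes of the connective tissue, were higher late. Of 20 genes for fibrillar and type VI collagens and their maturation 9 were separated upward and 0 downward (median 0.27). Col1a1, a chain of type I collagen, had signals of 6458, 8092 and 10846 early and of 14379, 18558 and 17650 late (1.02 ± 0.22), though its second probe set overlapped (0.51). Col3a1, the chain of type III collagen, had 5126, 4582 and 5786 early and 9104, 9173 and 10513 late (0.90 ± 0.11), and its 2 other probe sets were separated upward as well (1.39 and 1.10). Col5a2, a chain of type V collagen that limits fibril width, had 1617, 1428 and 1753 early, 3095, 2950 and 3032 late and 1800 on vehicle, a difference of 0.92 ± 0.09 (limma adjusted p = 0.174). The 3 late arrays of Col5a2 hardly differed from each other. Of the 12 other probe sets of list members above the filter, 9 had the sign of the brighter probe set. Only 3 of the 12 were separated upward, 2 of them those of Col3a1, and 1 was separated downward. Their median was 0.083, below that of the list.

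Sparc, a collagen-binding glycoprotein, had 1624, 1546 and 2148 early and 3274, 3188 and 3579 late (0.93 ± 0.14). In all, 4 of 5 fibrillar chains and 2 of 3 type VI chains were separated upward, while of 7 hydroxylases and crosslinking enzymes none was, with a median of -0.11. The chains and the enzymes that finish them thus stood at different places in the comparison, in subgroups formed after the values were seen and not tested. Basement membrane genes were mostly overlapping, with 1 of 16 separated in each direction. Col4a5, a chain of type IV collagen, had 435, 363 and 349 early and 440, 584 and 629 late (0.52 ± 0.18), and Hspg2 (perlecan) had 1715, 1683 and 2079 early and 1575, 1586 and 1495 late (-0.23 ± 0.10).

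Proteoglycans and matricellular proteins leaned the other way, with 1 of 23 separated upward and 4 downward (median -0.14, and -0.087 without the 6 h array). The gene above was Vcan (versican), a large proteoglycan of provisional matrix, with 469, 438 and 437 early, 777, 888 and 846 late and 380 on vehicle (0.90 ± 0.10, limma adjusted p = 0.174). Below were Thbs2 (thrombospondin), with 388, 397 and 482 early and 287, 245 and 319 late (-0.58 ± 0.16), and Fbln1 (fibulin), with 4908, 5093 and 5206 early and 4275, 3992 and 4309 late (-0.27 ± 0.06), where 1 of the other probe sets above the filter was separated (-0.56) and the other overlapped (-0.16). Ccn1, a matrix signal that belongs to the immediate early genes as well, was at the floor on all late arrays and had 179, 274 and 209 early, so its -0.57 is a bound. Of 14 matrix proteases and inhibitors 10 were below 0 and 3 above (median -0.099), while 2 were separated upward and 0 downward. The 2 separated genes were Timp1, an inhibitor of metalloproteinases, with 355, 504 and 597 early and 836, 674 and 722 late (0.64 ± 0.22), and Ctsk, a protease that cuts collagen (0.30 ± 0.10).

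The respiratory chain differed little per gene but widely. Of 53 subunit genes 24 were separated upward and 1 downward, 43 were above 0, and the median was 0.21, a factor of 1.16. Sdha, the catalytic subunit of complex II, had signals of 325, 248 and 344 early and of 506, 393 and 481 late (0.60 ± 0.18). Cox7b, a small subunit of complex IV, had 1157, 886 and 1014 early and 1517, 1395 and 1451 late (0.52 ± 0.11). Cox6a1, another such subunit, had 4271, 4563 and 5251 early and 6218, 7053 and 6361 late (0.48 ± 0.10). By complex, 12 of 23 genes of complex I, 2 of 4 of complex II, 1 of 6 of complex III, 4 of 8 of complex IV and 5 of 11 of the ATP synthase were separated upward. The gene separated downward was Cyc1 (cytochrome c1), with 8191, 8257 and 7317 early and 4392, 5507 and 4624 late (-0.72 ± 0.11), but its other probe set overlapped with the opposite sign (0.20), so the direction of Cyc1 is not settled. Of 9 other probe sets of list members 6 had the sign of the brighter probe set.

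Several lists of cell maintenance had more genes separated upward than downward, with small differences. The medians of the splicing and oxidative stress lists were near 0 (0.05 and 0.06). Other probe sets of list members above the filter were mixed. The sign of the brighter one was kept by 3 of 7 proteasome, 9 of 13 splicing and 3 of 9 oxidative stress probe sets. Of 36 proteasome genes 5 were separated upward and 2 downward (median 0.15, and 0.23 and 0.093 without the 6 h and the 12 h array). Psmd14, a subunit that removes ubiquitin, had 482, 386 and 571 early and 851, 781 and 635 late (0.66 ± 0.19), while Psmb2 had 1827, 2039 and 2019 early and 1700, 1709 and 1500 late (-0.26 ± 0.08). Of 42 splicing genes 7 were separated upward and 1 downward, with Srsf3, a splicing regulator, at 681, 752 and 820 early and 1122, 888 and 877 late (0.35 ± 0.13). The other Srsf3 probe set above the filter overlapped with the opposite sign (-0.12). Of 31 genes for metallothioneins and oxidative stress 7 were separated upward and 0 downward. They include Gpx2, a glutathione peroxidase, with 656, 597 and 546 early and 861, 913 and 826 late (0.53 ± 0.10), and Prdx4, a peroxiredoxin of the secretory path, with 824, 817 and 791 early and 1102, 1252 and 1050 late (0.48 ± 0.09).

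Cholesterol synthesis had a high median, 0.39 over 13 genes with 11 above 0, but only 2 separated upward. Without the 3 h array the median was 0.26. Fdps, which makes farnesyl diphosphate, had signals of 531, 555 and 695 early and of 1082, 1219 and 811 late (0.80 ± 0.19), and its other probe set above the filter was separated too (0.91). Ebp, a sterol isomerase, had 280, 248 and 288 early and 385, 321 and 366 late (0.39 ± 0.13). Against vehicle the list median declined over the late arrays, from 0.61 through 0.44 to 0.12, so the late arrays themselves were apart. Of 17 genes of stratified epithelium 4 were separated upward and 0 downward, all highest at 12 h. Sprr1a, a cornified envelope protein, had 755, 706 and 697 early, 1423, 1377 and 1208 late and 623 on vehicle (0.89 ± 0.09, limma adjusted p = 0.174), and Krt10, a keratin of such epithelia, had 202, 174 and 163 early and 356, 270 and 206 late (0.60 ± 0.22).

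Among the genes lower late, Gadd45g had signals of 1481, 3183 and 790 early and of 430, 268 and 349 late, against 435 on vehicle. Its protein is a stress sensor that restrains the cell cycle. The early arrays were spread over a wide range, and all late arrays lay at or under the vehicle value (limma adjusted p = 0.295). Gadd45a, of the same family, had 858, 864 and 409 early and 337, 305 and 388 late (-0.97 ± 0.33). Gadd45b, the remaining member, had 203, 263 and 201 early and 133, 178 and 171 late (-0.43 ± 0.14), but its other probe set overlapped. Of the 21 DNA damage genes tested 3 were separated downward, all of this family, and 1, H2ax, upward. Atm, the kinase of the series title, did not separate the phases. Its signals were 566, 368 and 688 early and 583, 386 and 581 late (-0.04 ± 0.29, limma adjusted p = 0.979).

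**Figure D4:**
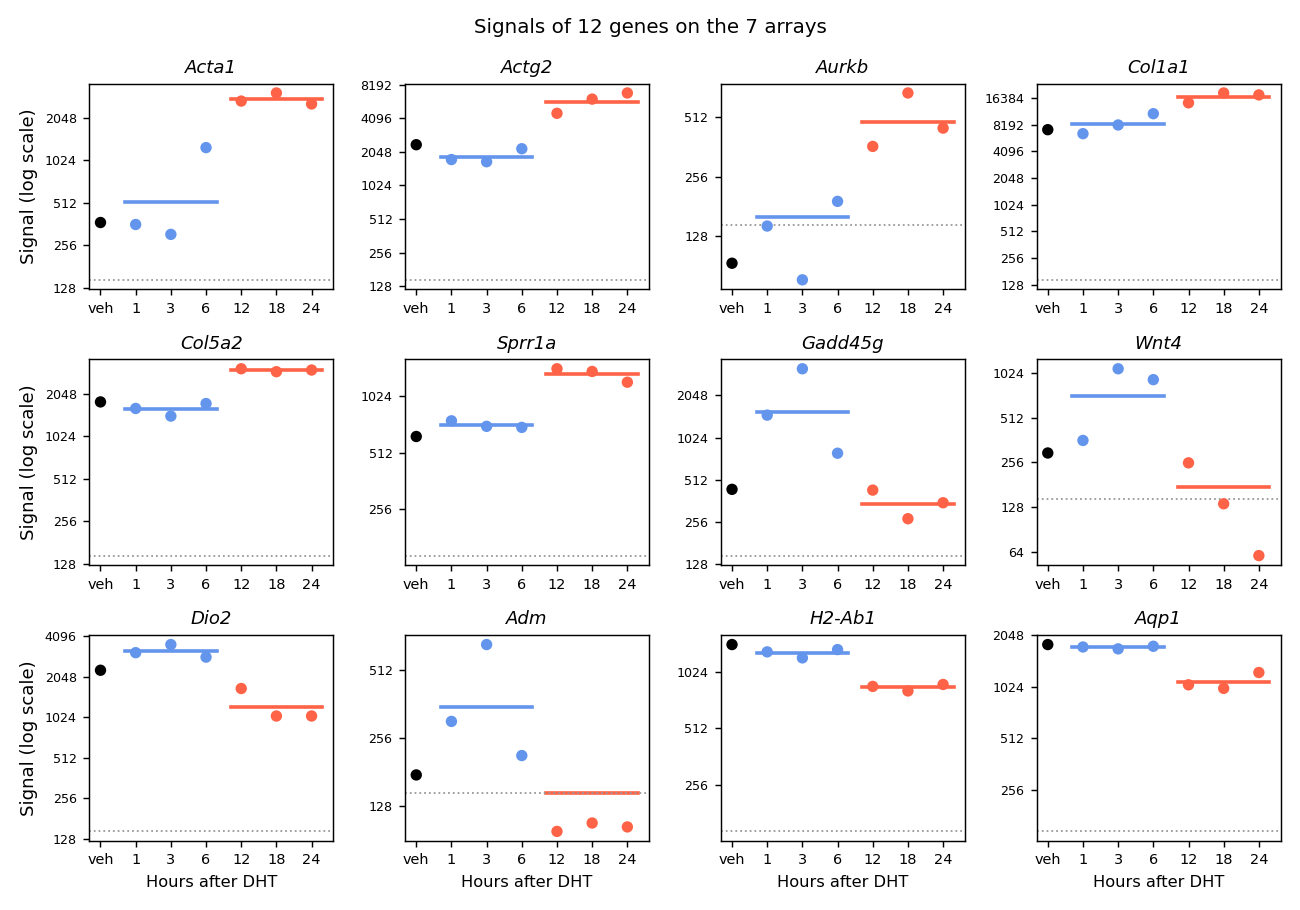
Signal of 12 genes on the vehicle array (black), the early arrays (blue) and the late arrays (red), on a log scale. Horizontal bars are the means of the phases on the log2 scale after raising values to the floor, which is the dotted line. The phases do not overlap in any of the 12 panels.

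Genes known to answer to estrogen in the uterus were more often lower than higher late. Of 30 tested 11 were separated downward and 1 upward, 23 were below 0 and 7 above, and the median was -0.19. The highest difference, 0.61, was that of Sprr2f, whose phases overlapped (752, 910 and 1147 early and 2079, 1267 and 1066 late). Wnt4, a secreted signal of the stroma, had 359, 1089 and 921 early and 254, 135 and 60 late, against 296 on vehicle (-2.02 ± 0.48). Adm (adrenomedullin), a peptide that widens vessels, had 302, 663 and 213 early and was under the floor on all late arrays, so its -1.26 is a bound. Ramp3, a partner of the adrenomedullin receptor, had 578, 1417 and 791 early and 511, 389 and 437 late (-0.97 ± 0.34). The early values of Wnt4, Adm and Ramp3 were highest at 3 h.

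Vegfa, the growth factor of vessels, had 372, 618 and 513 early and 282, 215 and 269 late (-0.95 ± 0.23), with vehicle at 200 below all of them. Pgr, the progesterone receptor, had 461, 536 and 385 early and 298, 240 and 225 late (-0.86 ± 0.18), with vehicle at 357. Inhbb, an activin subunit, was at the floor on all late arrays and had 170, 506 and 206 early, so its -0.84 is a bound. Its vehicle signal was under the floor too. Inhbb thus passed the filter only through its early arrays, and the filter set its direction. The member separated upward was Ckb, a creatine kinase long known as an estrogen-induced protein, with 3371, 3674 and 4267 early and 4403, 5828 and 5814 late (0.50 ± 0.15). Of the 9 other probe sets of this list only 3 had the sign of the brighter probe set, and the median of the 9 was 0.10. Wnt4 is counted in the list of Wnt, BMP and hedgehog signalling as well. Adm, Ramp3 and Vegfa are also counted in that of vessel growth and tone.

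Patterning signals stood on the same side. Of 39 genes of Wnt, BMP and hedgehog signalling and patterning 12 were separated downward and 2 upward (median -0.17, and -0.10 without the 6 h array). Axin2, a feedback target of Wnt signalling, had signals of 413, 625 and 340 early and of 299, 330 and 190 late (-0.74 ± 0.31). Gli2, a transcription factor of the hedgehog pathway, had 326, 350 and 480 early and 210, 240 and 260 late (-0.69 ± 0.18). Id3, a target of BMP signalling, had 1327, 2182 and 1772 early and 1091, 1049 and 1241 late (-0.62 ± 0.19). Smad7, an inhibitor of TGF-beta and BMP signalling, was separated downward (-0.45), as were Msx1 (-0.54), Msx2 (-0.53) and Dkk3 (-0.52), these last picked after their values were seen. Hoxa10, a homeobox gene of the uterus, was separated upward, with 662, 499 and 662 early and 762, 768 and 676 late (0.29 ± 0.15). Of the TGF-beta and activin genes, Acvr2b, an activin receptor, had 976, 1061 and 902 early and 717, 606 and 656 late (-0.57 ± 0.10), and 3 of 21 were separated downward and 1 upward. Those 3 include Inhbb, whose count adds no support because the filter set its direction.

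The immediate early genes, which are induced without new protein, had a median of -0.35, with 7 of 26 separated downward and 0 upward. Without the 3 h array the median was -0.20. Ier3 had 1431, 2856 and 957 early and 620, 674 and 844 late (-1.16 ± 0.41), Klf4 had 1264, 1868 and 1425 early and 994, 914 and 938 late (-0.66 ± 0.15), and Jun had 920, 704 and 780 early and 652, 324 and 560 late (-0.70 ± 0.28). Plk2, a kinase of the same list, shows how much a single early array can carry. Its signals were 1679, 5850 and 662 early and 666, 752 and 782 late, so its phases overlapped although the difference was -1.35 ± 0.77. Of the MAP kinase phosphatases and feedback genes 2 of 13 were separated downward and 1 upward. Dusp1, a phosphatase of that group, had 1073, 1639 and 1081 early and 843, 883 and 888 late, with vehicle at 702 (-0.51 ± 0.18).

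The androgen receptor and the glucocorticoid receptor share many DNA sites. Of 24 targets of these receptors 7 were separated downward and 0 upward (median -0.22, and -0.13 without the 3 h array). The 7 include Inhbb, whose direction was set by the filter, so its count adds no support. Igfbp3, which binds insulin-like growth factors in blood and tissue, had signals of 5207, 3954 and 3208 early and of 1625, 1292 and 3067 late (-1.12 ± 0.36), with an overlap on its other probe set (-0.63). Cebpb, a transcription factor, had 958, 1490 and 1129 early and 796, 586 and 758 late (-0.73 ± 0.20). Per1, a clock gene that glucocorticoids induce, had 397, 339 and 476 early and 293, 242 and 257 late (-0.60 ± 0.16). Fkbp5, a co-chaperone of the receptors and a common marker of androgen action, went the other way without separation, at 0.92 ± 0.67. Of the other probe sets of this list, 6 of 7 had the sign of the brighter probe set and 3 were separated downward.

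MHC class II genes were lower late with little spread. Of 7 tested 6 were separated downward and all 7 were below 0 (median -0.36). These proteins present peptides to helper T cells. H2-Ab1, the beta chain of I-A, had 1303, 1211 and 1340 early, 855, 809 and 875 late and 1425 on vehicle, a difference of -0.60 ± 0.07 (limma adjusted p = 0.174). H2-Eb1, the beta chain of I-E, had 2147, 1940 and 2249 early and 1465, 1678 and 1483 late (-0.45 ± 0.09). Ciita, the coactivator that class II genes need, had 265, 243 and 253 early, 158, 222 and 161 late and 402 on vehicle (-0.51 ± 0.15). For 4 of the 6 separated genes vehicle lay above all DHT arrays.

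Macrophage markers were given beside this result since macrophages carry class II. Of 13 tested 2, C1qc and C1qb, were separated downward and 0 upward, with a median of -0.12 that lay between -0.21 and -0.054 without single arrays, and the summed signal of the 17 markers on the array overlapped between the phases (12537 to 13377 early, 11287 to 13503 late). B and plasma cell markers overlapped as well (0 of 7 separated), and 4 macrophage markers, Aif1, Fcer1g, Fcgr3 and Msr1, were under the floor on all arrays. The part of cell makeup was not tested. Class II promoters are known for a W-X-Y module whose Y element is a reversed CCAAT box. The letters CCAAT on either strand were in 4 of 5 promoters of the list, against 36.8% of the promoters of all genes tested. The H2-Eb1 window is shown because it holds such a reversed box, which begins at -59, and a forward one at -35, both in capitals.
H2-Eb1 promoter, chr17:34305717-34305886, plus strand: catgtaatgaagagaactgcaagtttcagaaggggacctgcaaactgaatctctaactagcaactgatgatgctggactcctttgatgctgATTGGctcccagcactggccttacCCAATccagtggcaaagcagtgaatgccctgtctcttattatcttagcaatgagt

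Other genes named by the rule on the lower side came from several functions. Dio2, which activates thyroid hormone, had signals of 3091, 3551 and 2865 early, 1676, 1048 and 1048 late and 2290 on vehicle (-1.36 ± 0.21, limma adjusted p = 0.212). Plet1, a surface protein of epithelia, had 3589, 7140 and 4439 early and 2339, 2215 and 2440 late (-1.06 ± 0.25). Spsb1, an adaptor of a ubiquitin ligase, had 419, 366 and 281 early and 184, 142 and 155 late (-1.12 ± 0.18), and its other probe set was separated too (-0.69). These 3 genes had no late array within the early range. Aqp1, a water channel of vessels and muscle, had 1750, 1706 and 1767 early and 1051, 1002 and 1241 late (-0.67 ± 0.09), while its other probe set overlapped (-0.24). Fam20c, a kinase of secreted proteins, had 791, 1076 and 716 early and 478, 468 and 490 late (-0.83 ± 0.17). Lyve1, a marker of lymphatic vessels, had 368, 329 and 326 early and 226, 196 and 225 late (-0.66 ± 0.11). Cxcl14, a chemokine of epithelia, had 1538, 1403 and 1695 early and 1029, 697 and 737 late (-0.93 ± 0.17).

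Vessel genes were mixed. Of 24 genes of vessel growth and tone 5 were separated downward and 1 upward. Of 13 endothelial markers 2 were lower on all late arrays and 1 higher, and their summed signal overlapped (9884 to 11836 early, 9519 to 10444 late). The gene above was Cd34, a sialomucin of vessels and stromal cells, with 915, 932 and 900 early, 1228, 1322 and 1281 late and 854 on vehicle (0.48 ± 0.06, limma adjusted p = 0.203), although its other probe set overlapped (0.28). Nrp1, a coreceptor of Vegfa, had 542, 570 and 679 early and 866, 912 and 742 late (0.49 ± 0.13), and its other probe set was separated too (0.62). Thy1, a surface protein of stromal cells and nerves, had 2521, 2472 and 2517 early and 1974, 1850 and 1632 late (-0.47 ± 0.08). The 13 stromal markers tested went both ways, with 2 separated upward, 2 downward and a median of 0.08. Adipocyte markers had a lower summed signal on every late array (7182 to 8650 early, 5791 to 7135 late). Adipoq had 2228, 1995 and 1892 early and 1721, 1458 and 1263 late (-0.47 ± 0.13). Of 11 adipocyte markers tested 2 were separated, both downward, while 7 were below 0 and 4 above. The other separated marker was Lpl (-0.38), but its second probe set overlapped with the opposite sign (0.26).

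Clock genes were lower at a median of -0.34, with 4 of 17 separated downward and 1, Clock itself (0.23), upward. The median was -0.21 without the 6 h array and -0.22 without the 12 h array. Arntl, the partner of Clock, had 563, 546 and 580 early and 474, 410 and 373 late, against 610 on vehicle (-0.43 ± 0.12). The hour of death cannot be told apart from the time after DHT here. Some lists held no separated gene. None of 29 translation factors, 29 interferon-induced genes or 9 neutrophil markers was separated in either direction. Ribosomal proteins (1 of 24 upward), ribosome production (2 upward and 1 downward of 37) and heat shock proteins (3 and 1 of 28) stayed near the shares of all genes. The ER chaperones also did, with 3 of 28 upward and 1 downward, and Pdia3, a disulfide isomerase among them, had 1558, 1392 and 1366 early and 2402, 1941 and 2058 late (0.57 ± 0.10), with vehicle at 964.

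The vehicle array lay nearer to the early than to the late mean for most separated genes. Of the 537 genes higher late it was nearer to the early mean for 399 (74.3%), inside the early range for 249 and below both ranges for 117. Of the 460 genes lower late it was nearer to the early mean for 310 (67.4%), inside the early range for 173 and above both ranges for 107. Lists differed in this. Vehicle was nearer to the early mean for 23 of 26 separated mitosis genes, 22 of 24 respiratory chain genes, 12 of 13 smooth muscle genes and 6 of 6 MHC class II genes, but for only 3 of 11 estrogen-response genes and 3 of 7 immediate early genes. Vehicle lay inside the late range for 4 of those 11 estrogen-response genes and inside the early range for 4 of those 7 immediate early genes. With a single vehicle array these counts are a description.

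**Figure D5:**
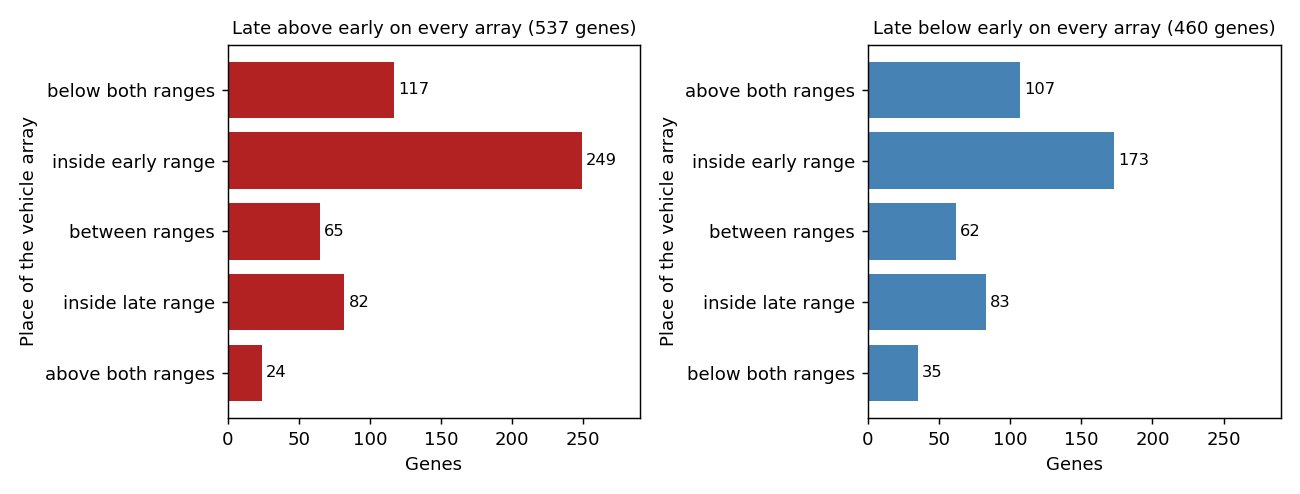
Bars count where the vehicle array lay for the genes higher late (left, 537 genes) and lower late (right, 460 genes), relative to the ranges of the early and the late arrays. In both panels the longest bar is the early range, with 249 and 173 genes.

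The step between the phases lay between 6 and 12 h by construction, and its median was 0.27 for the genes higher late and -0.26 for those lower late. The neighbouring steps were smaller. Among the genes higher late the median step was 0.10 from 3 to 6 h, 0.01 from 12 to 18 h and -0.02 from 18 to 24 h. The 6 h array leaned towards the late side. It held the highest early value for 251 of the 537 genes higher late, against 203 for 1 h and 83 for 3 h, and the lowest early value for 206 of the 460 genes lower late. The late arrays shared the highest values about evenly for the genes higher late (173, 191 and 173 in time order), while the lowest values of the genes lower late were most often at 18 h (200, against 145 and 115).

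Some genes varied widely within a phase, with overlap between the phases. Kdelr2, a retrieval receptor of the ER, had 1030, 1530 and 458 early and 318, 2181 and 878 late. Gtf2f2, a subunit of a general transcription factor, had 821, 150 and 765 early and 806, 172 and 1097 late, with the 3 and 18 h arrays low. Hsd11b2, which inactivates glucocorticoids, had 173, 645 and 1036 early and 815, 608 and 709 late, so its early arrays spanned all of its range. Over all genes the median SD within the early arrays was 0.18 log2 and within the late arrays 0.15.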

How the data were processed

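The authors deposited 1 linear intensity per probe set and Affymetrix U74Av2 array, computed with MAS5 (version not given in the sources used here) per the submitters' processing notes. No array was imputed or dropped. Of 12488 probe sets, 66 controls were left out. Of the other 12422, 10833 named 1 gene in the platform annotation, 396 several and 1193 none. A floor was set at 145.9, the 40th percentile over the table, lower signals were raised to it, log2 was taken, and the 8421 probe sets with a mean above the floor were tested. Each gene was read by its brightest probe set (6326 genes).

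Late and early arrays were compared in limma 3.58.1 (R 4.3.3; lmFit and eBayes with a variance trend, prior of 1.69 degrees of freedom) over vehicle, early and late, two-sided, with Benjamini-Hochberg adjustment over the probe sets tested and a threshold of 0.05. The script was tested on simulated data. Genes were named by a rule: the 12 largest separated differences each way with a gap of at least 0.5 log2 (11 exist downward), the 5 lowest p each way, up to 4 separated members of each list in its majority direction and 1 in the other, the 4 largest bounds each way, the 3 genes of widest range in each phase, and Atm and Gadd45g; not all of them are printed. Incenp, Pttg1, Cdk1, Ccnb2, Cdc20, Fkbp5, Msx1, Msx2 and Dkk3 were picked after their values were seen. The arrays compared and the 59 gene lists were chosen with earlier results of these data known. Alternatives changed the floor, scaling, filter, arrays and variance model.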

Additional observations from a re-analysis of the deposited data

How the results depend on the processing

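The count of probe sets passing the adjusted threshold was 0 under every alternative but one, and it ranged from 0 to 1 when single arrays were left out. That probe set, Acta1, passed without the 6 h array. The number separated upward, 689, ranged from 915 to 1348 when single arrays were left out, and the number separated downward, 557, from 862 to 1204. Fewer arrays need to lie apart, so these counts can grow by construction, and without the 6 h and 12 h arrays together they were 1714 and 1543. The 2-fold counts followed the floor. Upward they were 61 with a floor at the 20th percentile and 9 with one at the 60th (19 in the report), and downward 42 and 7 (14). Leaving out single arrays gave 17 to 36 upward and 9 to 27 downward, and leaving out 6 h and 12 h gave 48 and 32. The 6 h, 12 h and 24 h arrays each moved the upward 2-fold count by over 1.5 times (36, 34 and 32 without them), and the 3 h and 6 h arrays the downward count (9 and 27). Quantile or median scaling, no filter, the 6 DHT arrays alone and, for the count passing, a constant variance or the rank of time kept the counts within 1.5 times.

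Over 55 lists with at least 5 genes tested, 32 kept the sign of their median under all 14 alternatives. The median of mitosis lay between 0.43 and 0.82, smooth muscle between 0.29 and 0.44, collagens between 0.23 and 0.35, respiratory chain between 0.18 and 0.25 and MHC class II between -0.42 and -0.34. Of the genes printed, 4 changed sign in some setting. Leaving out single arrays, Atm ranged from -0.298 to 0.155, Kdelr2 from -0.765 to 0.625, Gtf2f2 from -0.571 to 1.05 and Hsd11b2 from -0.211 to 1.08. Without the 6 h and 12 h arrays Atm was 0.055 and Kdelr2 0.14. No paired analysis was possible because each group holds a single array. With 4 residual degrees of freedom and a different time on every array, the lack of calls does not show that genes did not differ.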

Other observations

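Some genes outside the groups above also lay apart between the phases. Hoxd9, a homeobox gene, had signals of 1057, 1156 and 1110 on the early arrays and of 751, 799 and 800 on the late arrays, in time order, a late minus early difference of -0.50 ± 0.07 (SE) on the log2 scale. F3 (tissue factor), which starts coagulation, had 1928, 1963 and 1100 early and 689, 677 and 1056 late (-1.03 ± 0.29), with the 6 h and 24 h arrays nearly touching. Bcl2l11 (Bim), which promotes apoptosis, had 1286, 1060 and 1211 early, 904, 917 and 847 late and 1393 on vehicle (-0.41 ± 0.09), but its other probe set above the filter overlapped (-0.12). Kcnk1, a potassium channel, had 1456, 1250 and 1192 early and 939, 896 and 984 late (-0.46 ± 0.10). On the higher side, Ahcy, which clears S-adenosylhomocysteine after methylation, had 1024, 958 and 1144 early, 1675, 1391 and 1440 late and 905 on vehicle (0.53 ± 0.11). Of its 2 other probe sets, the brighter one overlapped at -0.025, the opposite sign, and the dimmer one was separated upward (0.28), so the direction of Ahcy is not settled. None of these genes passed the adjusted threshold of the limma fit across all probe sets.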
